A study of Mus musculus with 9 samples.

Results

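Transcripts of 10 heterotrimeric G protein subunits were examined in RNA from synaptoneurosomes, a fraction of hippocampal homogenate enriched in pinched-off synaptic terminals. The subunits were listed by symbol and matched by Ensembl identifier, with no threshold on their values, and all 10 were found among the 22255 genes of the deposited count table. They comprise 8 alpha subunits (Gnao1, Gnai1, Gnai2, Gnaz, Gnaq, Gna11, Gnas and Gnal) and 2 beta subunits (Gnb1 and Gnb5). All 9 samples came from Fmr1 knockout mice of the C57Bl/6J strain, a model of fragile X syndrome, so that treated and control animals carried the same Fmr1 mutation. One group had received AM6545 sub-chronically (n = 4, replicates A, B, C and E) and the other vehicle (n = 5, replicates A to E). AM6545 blocks CB1 cannabinoid receptors and enters the brain poorly. The labels give no age, sex, dose or duration, and do not say whether a sample is 1 mouse or a pool. The p-values therefore measure the spread between these samples, which may in part be technical. No wild-type sample is analysed here.

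A heterotrimeric G protein consists of an alpha subunit that binds guanine nucleotides and a beta-gamma dimer. An activated receptor makes the alpha subunit exchange GDP for GTP, after which alpha and beta-gamma act on separate effectors. Alpha subunits of the Gi/o class lower cyclic AMP and release beta-gamma onto potassium and calcium channels, those of the Gs class raise cyclic AMP, and those of the Gq class activate phospholipase C beta. CB1 and the serotonin receptor Htr1a couple to Gi/o, Htr2a couples to Gq, and Htr4, Htr6 and Htr7 couple to Gs.

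The end of the alpha subunit is a part that docks into the receptor, and its coding sequence is shown to let the classes be compared. The last 11 codons before the stop codon are shown 5′ to 3′ for 7 of the alpha subunits from GENCODE M21 transcripts (GRCm38 annotation), with the fourth codon from the end in capitals. In Gi and Go this codon encodes the cysteine that pertussis toxin modifies.
Gnao1-201: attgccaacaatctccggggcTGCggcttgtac
Gnao1-207: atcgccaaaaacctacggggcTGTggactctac
Gnai1-201: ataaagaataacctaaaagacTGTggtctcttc
Gnai2-201: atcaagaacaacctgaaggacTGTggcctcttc
Gnaz-201: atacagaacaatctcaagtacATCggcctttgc
Gnaq-201: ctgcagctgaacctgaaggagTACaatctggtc
Gna11-201: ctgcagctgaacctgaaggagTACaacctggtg
Gnas-202: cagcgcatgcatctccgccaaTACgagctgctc
The cysteine codons TGC or TGT stood at the marked place in Gnao1, Gnai1 and Gnai2, and ATC stood there in Gnaz, whose product is known to resist the toxin. The codon TAC stood there in Gnaq and Gna11 of the Gq class and also in Gnas of the Gs class. Of the 33 bases, Gnaq and Gna11 shared 31 and pairs of different Gi/o genes shared 16 (Gnao1-207 and Gnaz) to 28 (Gnai1 and Gnai2). Pairs from different classes shared 11 to 19, the highest being Gnai2 with Gnaq and with Gna11, so these ranges overlapped and the bases shared did not separate the classes. The pair of Gnao1 transcripts, which end in different last exons, shared 25. The deposited table holds 1 value per gene, so these Gnao1 forms could not be separated.

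Total counts ran from 17628922 to 27263393 per sample, and 14512 genes passed a filter on low counts and were tested. All 10 subunits passed, with between 971 and 36284 counts in a sample, so the filter removed none of them. Fmr1, the gene targeted in every animal, had 199 to 310 counts per sample, which does not say whether the gene is intact. Its level was 10.1 ± 0.754 CPM, the count scaled by library size, with AM6545 (SD, n = 4) against 11.7 ± 1.18 CPM with vehicle (SD, n = 5). Summed neuron markers (8 genes) ran from 6661 to 8903 CPM and summed oligodendrocyte markers (8 genes) from 10862 to 22614 CPM, so transcripts of glia were abundant in the fraction. Choroid plexus markers (8 genes) ran from 54.7 to 4417 CPM, and their part in the results was not tested.

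To compare the subunits with each other, counts were divided by transcript length and scaled to the same sum in every sample. On this length-scaled measure Gnas, which encodes the stimulatory subunit that activates adenylyl cyclase, was the most abundant of the 10, at 758 ± 92.2 with AM6545 (SD, n = 4) against 731 ± 102 with vehicle (SD, n = 5). Gnb5, the beta subunit that pairs with a family of RGS proteins, followed at 251 ± 43.1 and 238 ± 36.9. Next came the inhibitory subunits, with Gnai2 at 232 ± 16.6 and 226 ± 15.9, Gnai1 at 194 ± 6.00 and 195 ± 38.3, and Gnao1 at 162 ± 3.90 and 163 ± 28.0. Gnb1, the common beta subunit, stood at 133 ± 4.10 and 135 ± 13.2, and Gna11 at 105 ± 5.41 and 94.9 ± 5.32. The lowest levels were those of Gnaq (51.7 ± 3.45 and 52.0 ± 6.39), Gnaz (52.1 ± 2.71 and 48.1 ± 9.85) and Gnal (35.2 ± 3.65 and 34.5 ± 4.998).

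Several neighbours in this order were not separated beyond their spread. The ratio of Gnb5 to Gnai2 ran from 0.732 in vehicle A to 1.22 in AM6545 C, the ratio of Gnai2 to Gnai1 from 0.838 in vehicle C to 1.59 in vehicle A, and the ratio of Gnaq to Gnaz from 0.843 to 1.29. The other neighbours kept their order in all 9 samples. Gnas exceeded Gnb5 by 2.72 to 3.41 times, Gnai1 exceeded Gnao1 by 1.08 to 1.28 times, and Gna11 exceeded Gnaq by 1.54 to 2.39 times. Gnas was also 16.9 to 26.0 times as abundant as Gnal, the olfactory-type stimulatory subunit that couples dopamine and adenosine receptors in striatum. The length used bears on this order. With the shortest and longest CCDS transcripts (those with a consensus coding sequence) the mean for Gnal over all samples would be 94.0 and 21.1. That for Gnao1 would be 190 and 102, and that for Gnas 1590 and 663. Other annotated transcripts were not used.

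**Figure D1:**
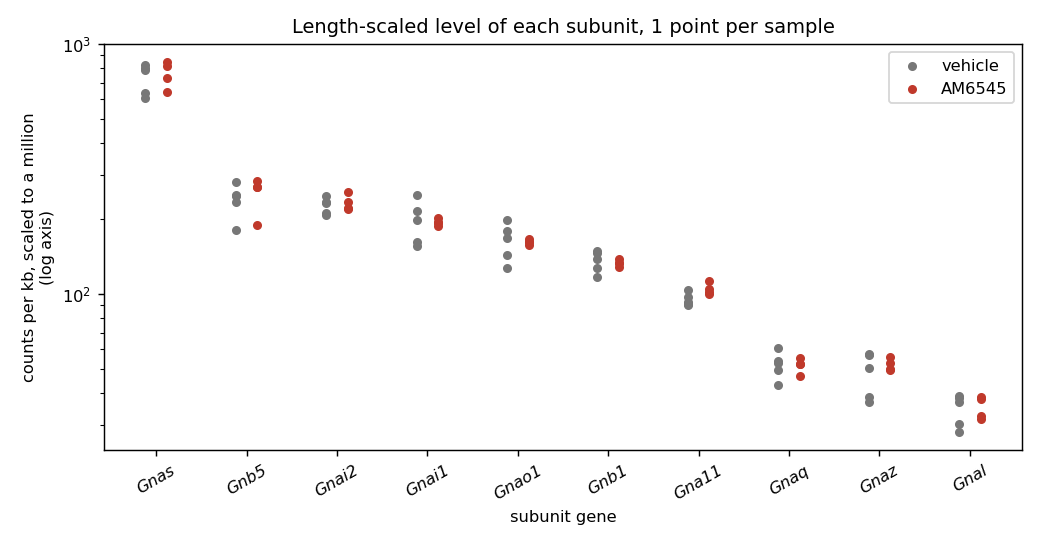
Length-scaled level (counts per kilobase scaled to the same sum in every sample, log axis) of each subunit gene, with 1 point per sample, vehicle in grey and AM6545 in red. Gnas lies above the other 9 subunits in every sample, at 607 to 844, and Gnal is lowest on average.

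Of all alpha subunit RNA on the length-scaled measure, the Gs class (Gnas and Gnal) made up 45.8% ± 2.77 with AM6545 (SD, n = 4) against 45.6% ± 1.64 with vehicle (SD, n = 5). The Gi/o class, here Gnao1, Gnai1, Gnai2, Gnaz and the additional member Gnai3, made up 38.9% ± 1.61 and 39.7% ± 1.17. The Gq class, led by Gna11 and Gnaq, made up 9.35% ± 0.551 and 9.06% ± 0.522. In each of these classes the group means lay closer together than 1 SD of either group. The order of the Gs and Gi/o classes depends on the lengths used. With the longest CCDS transcript the mean for Gnas was 663, and with the shortest those for Gnao1 and Gnai2 were 190 and 257. The Gnas count also sums other forms of its locus.

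The comparison of AM6545 with vehicle asks whether blocking CB1 outside the brain was accompanied by a change in the RNA of the proteins through which CB1 signals. No subunit passed the test. Of the 10, 4 had a higher and 6 a lower mean in AM6545 samples, none reached an adjusted p below 0.05 with the edgeR quasi-likelihood test, and none an unadjusted p below 0.05. Over all genes tested 0% passed at the adjusted and 7.21% at the unadjusted threshold. The unadjusted p of the subunits ran from 0.226 to 0.957 and the adjusted p, over all genes tested, from 0.717 to 0.989. The median log2 fold change of the 10 subunits was -0.0067 and that of all tested genes -0.0090, while the median size of the change regardless of sign was 0.04 for the subunits and 0.12 for all tested genes. The latter include genes with far fewer counts than the subunits.

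The data set bounds on these differences. The 95% intervals of the 10 log2 fold changes lay between -0.28 and 0.32, which corresponds to folds between 0.821 and 1.25. All 10 intervals lay within 0.5 log2 units of 0, as did those of 63.7% of all genes tested, which include genes with far fewer counts.

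**Figure D2:**
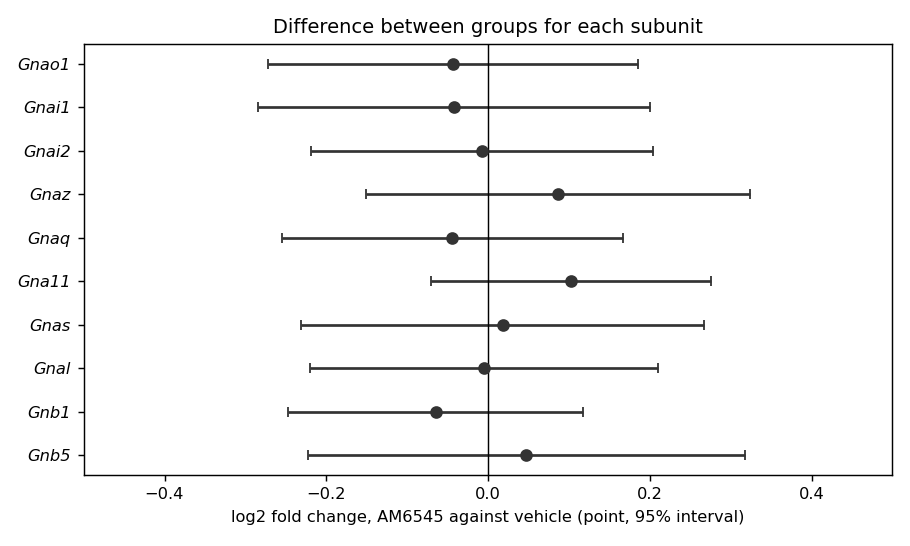
Log2 fold change of AM6545 against vehicle for each of the 10 subunits (points) with 95% intervals from edgeR's quasi-likelihood fit (bars). All intervals include 0, and none goes beyond -0.28 or 0.32.

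Among the Gi/o subunits, Gnao1 (ENSMUSG00000031748.17), the most abundant alpha subunit protein of brain, had 267.7, 270.7, 268.4 and 266.4 CPM in AM6545 A, B, C and E. In vehicle A to E it had 264.9, 295.2, 328.2, 228.4 and 265.3 CPM. The AM6545 samples lay close together, inside the vehicle range set by vehicle C at the top and vehicle D at the bottom. This gave a log2 fold change of -0.04 with SE 0.11 (edgeR adjusted p = 0.922). Without vehicle C it was 0.03.

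Gnai1 (ENSMUSG00000057614.7), an inhibitor of adenylyl cyclase, had 301.9, 282.7, 301.3 and 280.4 CPM in AM6545 samples and 259.2, 297.1, 373.8, 265.1 and 306.3 CPM in vehicle samples. The groups overlapped, with vehicle C again the highest. The log2 fold change was -0.04 (SE 0.11, edgeR quasi-likelihood adjusted p = 0.929), and 0.05 without vehicle C.

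Gnai2 (ENSMUSG00000032562.14), the inhibitory subunit that is common in glia and blood cells as well as neurons, had 210.9, 239.0, 215.2 and 221.5 CPM in AM6545 samples. In vehicle samples it had 261.7, 223.6, 199.4, 220.5 and 209.5 CPM. Here vehicle A was the highest and vehicle C the lowest of all 9 samples, the reverse of Gnai1, in which vehicle C was highest and vehicle A lowest. The log2 fold change of Gnai2 was -0.0078 (SE 0.10, edgeR quasi-likelihood adjusted p = 0.985), and 0.06 without vehicle A.

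Gnaz (ENSMUSG00000040009.7) encodes a neuronal Gi/o subunit that is insensitive to pertussis toxin. It had 86.2, 89.6, 85.0 and 81.4 CPM in AM6545 samples and 70.5, 83.0, 94.5, 65.7 and 88.9 CPM in vehicle samples. Every AM6545 sample exceeded the vehicle mean of 80.5 CPM, but none exceeded vehicle C. The log2 fold change was 0.09 (SE 0.11, edgeR quasi-likelihood adjusted p = 0.828). It was 0.02 without vehicle D and 0.15 without vehicle C.

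**Figure D3:**
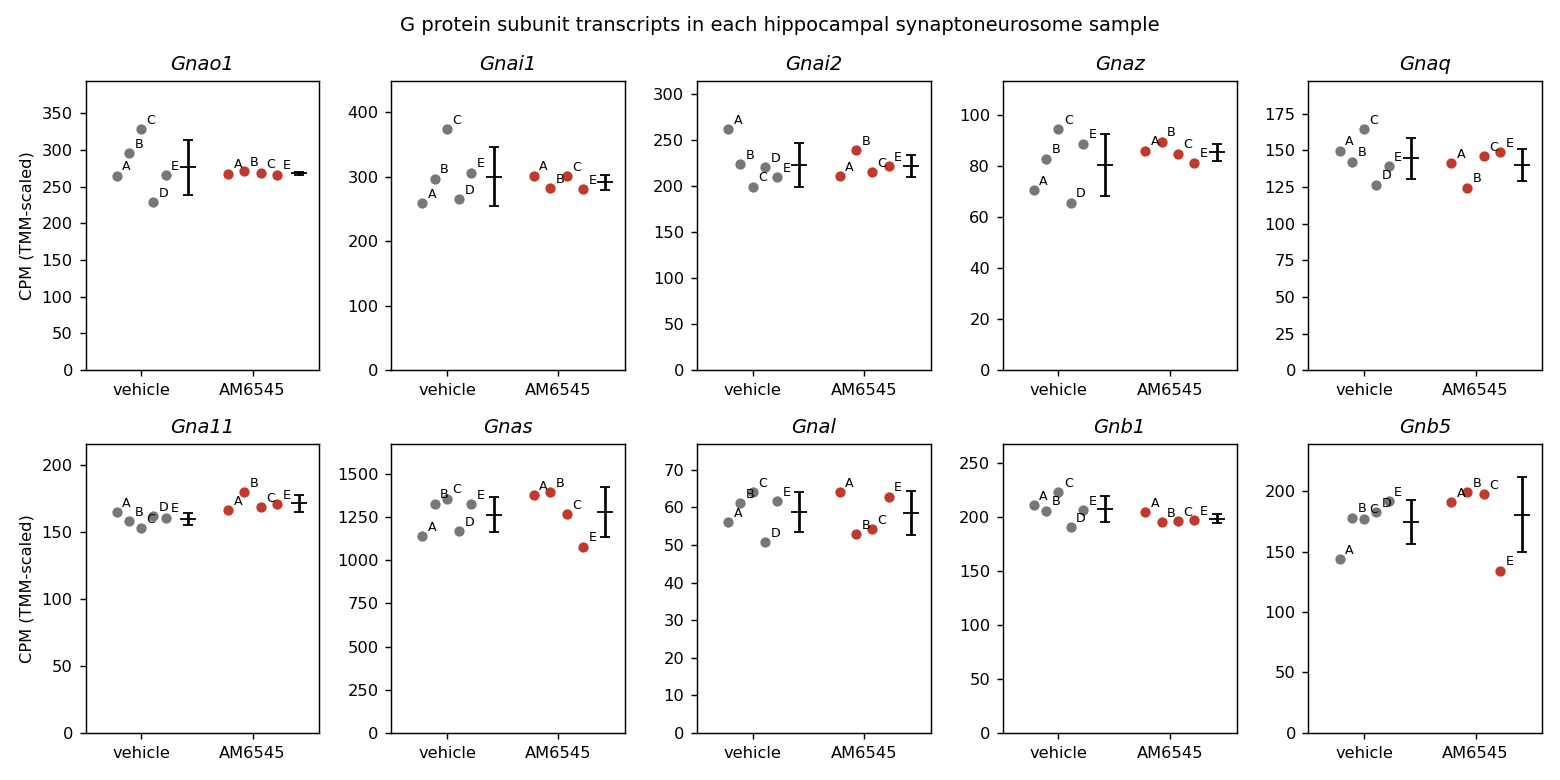
CPM (scaled by library size and TMM factor, axes from 0) of each subunit gene in each sample, labelled by replicate letter, with the group mean and SD beside the points. The Gna11 samples do not overlap between groups (153.2 to 164.8 CPM in vehicle, 166.4 to 180.2 CPM in AM6545), and the other 9 genes overlap.

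The Gq subunits are activators of phospholipase C beta and couple to receptors such as Htr2a and Grm5. Gna11 (ENSMUSG00000034781.6) had 166.4, 180.2, 168.6 and 171.0 CPM in AM6545 A, B, C and E. In vehicle A to E it had 164.8, 158.1, 153.2, 161.9 and 160.8 CPM. All AM6545 samples thus lay above all vehicle samples. The means were 172 ± 6.07 CPM (SD, n = 4) and 160 ± 4.41 CPM (SD, n = 5), which is a log2 difference of 0.10 (SE 0.08, edgeR quasi-likelihood adjusted p = 0.717) or 1.07-fold, with a 95% interval from 0.952-fold to 1.21-fold.

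A two-sided exact permutation test of the CPM values of Gna11 gave p = 0.0159, the smallest that 4 against 5 samples can give. Any gene without overlap between groups gets this p, so the test restates the separation. The adjusted permutation p was 0.746, which was also the smallest of all genes tested. Of the 10 subunits, Gna11 was the 1 without overlap between groups, while 1.45% of all tested genes showed no overlap (0.579% with AM6545 above and 0.868% with AM6545 below). The separation rested on the scaling. With DESeq2-type size factors the groups remained apart, at 167 to 182 CPM against 152 to 163 CPM. With total counts alone they overlapped, at 164 to 181 CPM against 156 to 168 CPM, and with upper quartile factors the lowest AM6545 sample (163.5 CPM) lay below the highest vehicle sample (166.8 CPM). Over all alternatives the log2 fold change of Gna11 stayed above 0, from 0.06 with each sample's trend with transcript length removed to 0.12 without AM6545 A.

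Gnaq (ENSMUSG00000024639.6), the closest relative of Gna11, had 141.0, 124.5, 145.8 and 148.8 CPM in AM6545 samples and 149.6, 142.2, 164.4, 126.7 and 139.2 CPM in vehicle samples. The groups overlapped, and AM6545 B, the highest sample for Gna11, was the lowest for Gnaq. This gave a log2 fold change of -0.04 with SE 0.10 (edgeR adjusted p = 0.912), and 0.0084 without AM6545 B. The length-scaled ratio of Gna11 to Gnaq was 2.04 ± 0.237 with AM6545 (SD, n = 4) against 1.84 ± 0.206 with vehicle (SD, n = 5), a difference smaller than its spread.

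Of the stimulatory subunits, Gnas (ENSMUSG00000027523.21) had 1376, 1395, 1267 and 1078 CPM in AM6545 samples and 1140, 1328, 1356, 1167 and 1326 CPM in vehicle samples. Its highest and lowest values were both in AM6545 samples, B and E. This gave a log2 fold change of 0.02 with SE 0.12 (edgeR adjusted p = 0.970), 0.09 without AM6545 E and -0.03 without AM6545 B. Gnas is an imprinted locus whose alternative promoters give several proteins and an antisense transcript, and the gene-level count sums the forms assigned to it. In M21 its exons share 1469 bases with Gm20721 on the opposite strand, and that gene had 18 to 33 counts in a sample.

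Gnal (ENSMUSG00000024524.18) had 64.1, 53.0, 54.2 and 62.9 CPM in AM6545 samples and 56.1, 61.1, 64.1, 50.8 and 61.6 CPM in vehicle samples. The ranges of the groups coincided almost entirely, and the log2 fold change was -0.0055 (SE 0.10, edgeR quasi-likelihood adjusted p = 0.989). Exons of Gnal share 852 bases with Mppe1 on the opposite strand, which had 407 to 647 counts, so the level of Gnal is uncertain. Summed striatum markers (9 genes), given because Gnal is abundant in striatum, ran from 214 to 247 CPM in AM6545 samples and from 214 to 287 CPM in vehicle samples, and the highest of them, vehicle D, had the lowest Gnal value.

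Of the beta subunits, Gnb1 (ENSMUSG00000029064.16), the usual partner of Gi/o alpha subunits, had 204.3, 195.1, 196.2 and 196.6 CPM in AM6545 samples and 210.7, 205.6, 223.0, 190.2 and 206.3 CPM in vehicle samples. All 4 AM6545 samples lay below the vehicle mean of 207 CPM, while vehicle D lay below all of them. The log2 fold change was -0.06 (SE 0.09, edgeR quasi-likelihood adjusted p = 0.833), and -0.04 without vehicle C.

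Gnb5 (ENSMUSG00000032192.10), which forms complexes with RGS proteins that speed the shut-off of Gi/o signals, had 190.9, 199.3, 197.4 and 134.2 CPM in AM6545 samples. In vehicle samples it had 143.5, 177.9, 177.3, 182.4 and 191.7 CPM. One sample in each group, AM6545 E and vehicle A, lay well below the rest. The log2 fold change was 0.05 (SE 0.13, edgeR quasi-likelihood adjusted p = 0.929), 0.17 without AM6545 E and -0.02 without vehicle A. These low samples also had high shares of counts from mitochondrially encoded genes, at 6.73% and 7.90% against 4.06% to 6.54% in the other samples. The 6.54% was that of vehicle D, which had 182.4 CPM of Gnb5. The part of that share in the Gnb5 values was not tested.

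Levels of the subunits varied little between samples compared with all tested genes, which include genes with far fewer counts. No comparison with genes of similar counts was made. The coefficient of variation over all 9 samples ran from 4.77% for Gna11 and 4.91% for Gnb1 to 13.1% for Gnb5, with a median of 8.92% against 14.3% for all tested genes. The highest sample exceeded the lowest by 1.17 times for Gnb1 and by 1.49 times for Gnb5. Gnao1 varied by 0.670% among AM6545 samples, the smallest such value of the 10, and by 13.5% among vehicle samples. At 5179 to 6705 counts, counting noise alone would on average give more than 0.670%. On the length-scaled measure Gnao1 was at 162 ± 3.90 with AM6545 (SD, n = 4) against 163 ± 28.0 with vehicle (SD, n = 5). The coefficient of variation in CPM was smaller in the AM6545 group for 6 of the 10 subunits and for 56.4% of all tested genes.

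The samples that set the extremes were few. Vehicle C was the highest of the 9 samples for 6 subunits (Gnao1, Gnai1, Gnaz, Gnaq, Gnal and Gnb1) and the lowest for Gnai2 and Gna11. Vehicle D was the lowest for Gnao1, Gnaz, Gnal and Gnb1. Vehicle C also had the highest summed neuron markers of the 9 samples, at 8903 CPM, and the lowest summed levels of astrocyte (3706 CPM), oligodendrocyte (10862 CPM), microglia (682 CPM) and endothelial markers (46.8 CPM). Snap25 weighs heavily in the neuron sum, with 3354 to 5304 CPM across vehicle samples, the highest being vehicle C. Across AM6545 samples it had 3481 to 3961 CPM. Without Snap25 vehicle C was not the highest sample, since AM6545 C, with a neuron sum of 8080 CPM, had more of the other neuron markers. Vehicle A, the highest sample for Gnai2, had the lowest neuron markers (6661 CPM) and the highest oligodendrocyte markers (22614 CPM). The part of cell type makeup in these subunit values was not tested, and in such bulk samples fewer cells of a type and less RNA per cell cannot be told apart.

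**Figure D4:**
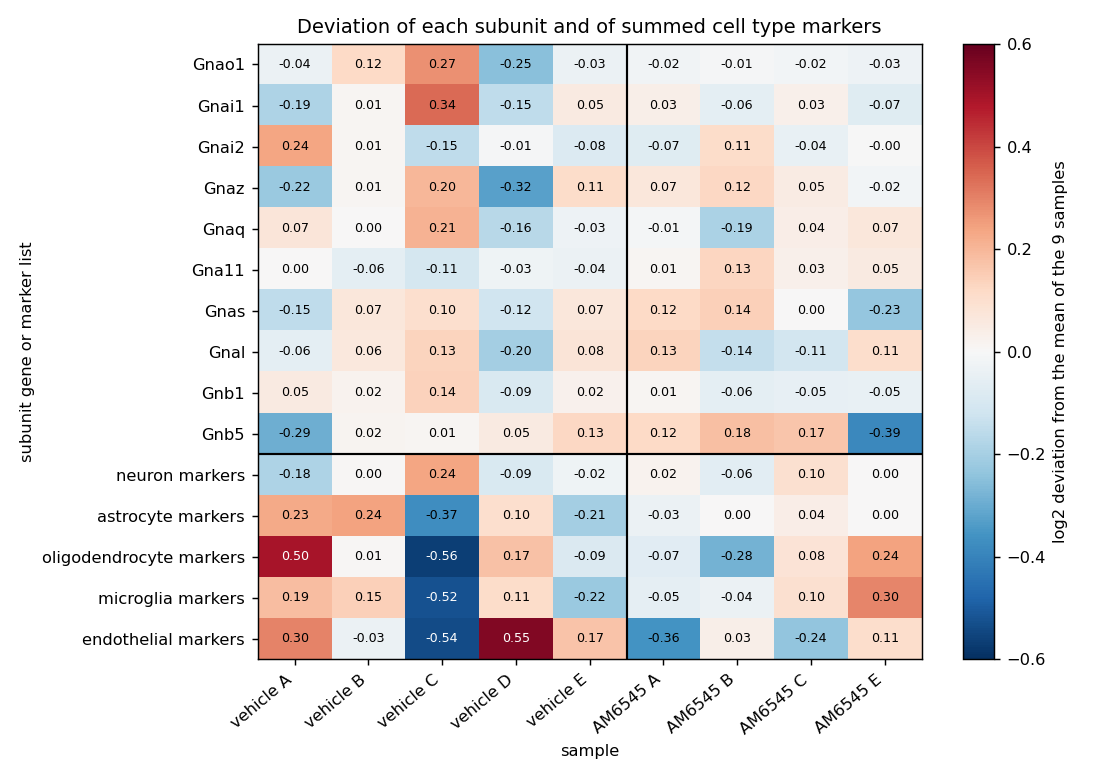
Log2 deviation from the mean of the 9 samples for each subunit gene (top) and for the summed CPM of marker genes of 5 cell types (bottom), vehicle samples on the left and AM6545 samples on the right. Vehicle C is high for Gnao1, Gnai1 and the summed neuron markers, and low for Gnai2 and the glial and endothelial markers. Snap25 weighs heavily in the neuron sum, and without it vehicle C was not the highest.

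Genes whose log2 CPM followed a subunit most closely over the 9 samples were listed for Gnao1, Gnas and Gnal as a description. For Gnao1 they were Cplx1 (Pearson r = 0.957), which encodes the presynaptic protein complexin, the Gs-coupled serotonin receptor Htr7 (r = 0.957) and Fam217b (r = 0.951). For Gnas they were Stx1a (r = 0.968), a syntaxin of the vesicle fusion machinery, Mei1 (r = 0.962, on a mean level of 0.41 CPM) and Incenp (r = 0.957). For Gnal they were Fam53c (r = 0.963), Zfand2a (r = 0.944) and Rab21 (r = 0.939). These are the highest values among 14511 other genes, over samples that differ in library depth and marker levels. The part of these differences in the correlations was not tested.

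Other genes of the pathway were read in 12 lists holding 133 genes, of which 118 were tested. None reached an adjusted p below 0.05 in edgeR, and 9, or 7.63%, had an unadjusted p under 0.05, against 7.21% of all genes tested. In 2 of the 118 the groups did not overlap, a share close to the 1.45% of all genes tested. Among the other alpha subunits, 5 of 8 were tested, with a median log2 fold change of 0.06. Gna12 was at 0.10 (SE 0.11), and Gnai3, the third inhibitory subunit, was at -0.12 (SE 0.09). Transcripts of the transducins of photoreceptors and taste cells (Gnat1, Gnat2 and Gnat3) fell under the filter, with at most 9, 32 and 0 counts in a sample. Of the other beta subunits, Gnb2 was at 0.05 (SE 0.11) and Gnb4 at -0.06 (SE 0.11), and Gnb3 was under the filter.

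Gamma subunits, the small partners that anchor the beta subunit to the membrane, were the subunit list farthest from 0. Tests were made for 11 of the 12, of which 2 were higher and 9 lower, where 48.2% of all tested genes were higher. Their median log2 fold change was -0.16 against -0.0090 for all tested genes. Of them 2 had an unadjusted p under 0.05 (both lower, against 4.18% of all genes tested). Gng5 averaged 19.5 ± 3.42 CPM with AM6545 (SD, n = 4) against 29.1 ± 9.71 CPM with vehicle (SD, n = 5), for a log2 fold change of -0.58 with SE 0.20 (edgeR adjusted p = 0.653). Vehicle A had 45.4 CPM, and without that sample the log2 fold change was -0.37. The other was Gng13, named after its values were seen, at -0.47 (SE 0.19). Gng7, abundant in forebrain and a partner of Gnal, was at 0.13 (SE 0.11).

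Gamma subunit transcripts are mostly short by the lengths used here, though Gng7 was at 3393.5 bases and Gng4 at 3179 bases. These lengths depend on the transcripts chosen. Gng2 was given 515 bases, while its CCDS transcripts run from 393 to 3826 bases. The median length of the gamma subunits was 1155 bases, that of the 10 alpha and beta subunits 3419.5 bases and that of all tested genes 2895.5 bases. Longer transcripts tended to have higher log2 fold changes across 14494 genes (Spearman correlation 0.279; genes do not replicate one another). With each sample's trend with length removed the gamma median was -0.07. Without vehicle C it was -0.06, without AM6545 B -0.09 and with limma-voom -0.09.

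Among RGS proteins, which speed GTP hydrolysis by alpha subunits, and their partners, tests were made for 18 of 21 genes, of which 8 were higher and 10 lower, with a median of -0.04. Rgs2, which acts on Gq, had 52.7, 50.9, 53.1 and 47.4 CPM in AM6545 samples and 65.9, 53.3, 78.6, 59.4 and 62.7 CPM in vehicle samples. The groups did not overlap, AM6545 C and vehicle B being the nearest, and 0.868% of all tested genes likewise had AM6545 wholly below. The log2 fold change of Rgs2 was -0.33 (SE 0.11, edgeR quasi-likelihood adjusted p = 0.653). Over the alternatives it ran from -0.38 to -0.24. Rgs12 was at 0.18 (SE 0.11).

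Chaperones and modulators of G proteins (10 of 11 tested) had a median of 0.02, with Gprin1, a partner of Gnao1 in growth cones, at 0.24 (SE 0.15) and Gpsm3 at -0.55 (SE 0.30) on a level under 1 CPM. G protein-coupled receptor kinases and arrestins, which switch receptors off, had a median of 0.10 over 7 genes, with Grk2 at 0.18 (SE 0.12) and Grk4 at -0.09 (SE 0.17). No gene of either list had an unadjusted p under 0.05.

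The effectors had medians above 0. Their median transcript lengths were 4628.8 bases (phospholipase C beta), 3097 bases (GIRK channels) and 5987.5 bases (adenylyl cyclases), against 2895.5 bases for all tested genes. Across all genes longer transcripts tended to have higher log2 fold changes, as given above. The part of length in the effector medians was not tested. Phospholipase C beta genes (4 of 4 tested) had a median of 0.19, with Plcb3 at 0.27 (SE 0.14) and Plcb2 at -0.02 (SE 0.25). GIRK channels, the potassium channels that beta-gamma opens, had a median of 0.09 over 3 genes, with Kcnj6 at 0.25 (SE 0.13) and Kcnj3 at -0.04 (SE 0.12). Adenylyl cyclases (8 of 9 tested) had 7 higher and 1 lower, where 48.2% of all tested genes were higher. Their median was 0.16, which was 0.07 without AM6545 E and 0.05 with limma-voom sample weights. The lower one was Adcy6, at -0.17 (SE 0.17). Adcy3, the cyclase of neuronal primary cilia, had 50.2, 47.1, 55.1 and 58.6 CPM in AM6545 samples and 32.2, 52.6, 41.4, 42.8 and 37.7 CPM in vehicle samples. Vehicle B lay inside the AM6545 range, and the log2 fold change was 0.35 (SE 0.13, edgeR quasi-likelihood adjusted p = 0.653).

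Receptors were grouped by the class to which they couple. Of 26 tested receptors that couple to Gi/o, 23 were higher and 3 lower, with a median of 0.13, where 48.2% of all tested genes were higher. The median was 0.06 without AM6545 E and 0.10 with the length trend removed. Of these receptors 3 had an unadjusted p under 0.05, all higher, against 3.03% of all genes tested. The noradrenaline receptor Adra2c had 32.8, 29.6, 31.2 and 36.6 CPM in AM6545 samples and 24.3, 28.9, 25.1, 25.9 and 28.1 CPM in vehicle samples. It showed no overlap, as did 0.579% of all tested genes with AM6545 above. Its log2 fold change was 0.30 (SE 0.10, edgeR quasi-likelihood adjusted p = 0.653). The others, named after their values were seen, were the glutamate receptor Grm2 (0.29, SE 0.13) and the GABA-B receptor subunit Gabbr2 (0.22, SE 0.10). Oprd1 was at -0.05 (SE 0.19), Htr1a at 0.10 (SE 0.13) and Cnr1, which encodes CB1, at 0.0061 (SE 0.11).

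Receptors that couple to Gq (12 of 12 tested, 9 higher and 3 lower) had a median of 0.09. The serotonin receptor Htr2c, which is abundant in choroid plexus, was at -0.31 (SE 0.20), with 22.9 CPM in vehicle D and 19.3 CPM in vehicle A, where summed choroid plexus markers were 4417 and 4079 CPM. AM6545 E had more Htr2c (17.3 CPM) than vehicle E (15.7 CPM) but lower choroid plexus markers (955 against 2178 CPM), and the part of these markers in the Htr2c values was not tested.

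Receptors that couple to Gs (12 of 13 tested, 7 higher and 5 lower) had a median of 0.11. The serotonin receptor Htr4 was at 0.23 (SE 0.12), which was 0.13 without AM6545 C and 0.34 without AM6545 B. The adenosine receptor Adora2b averaged 6.34 ± 0.597 CPM with AM6545 (SD, n = 4) against 8.51 ± 1.56 CPM with vehicle (SD, n = 5), for a log2 fold change of -0.42 with SE 0.15 (edgeR adjusted p = 0.653).

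**Figure D5:**
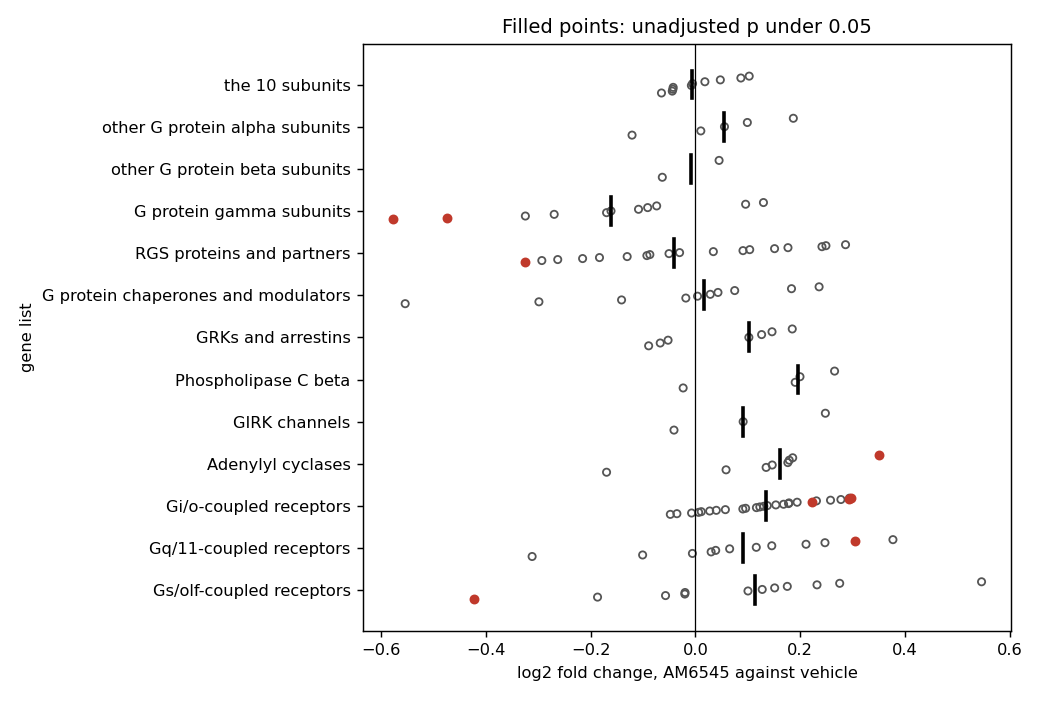
Log2 fold change of AM6545 against vehicle for each tested gene (points) of the 10 subunits and of 12 further lists of the pathway, with the list median as a vertical bar and filled points where the unadjusted p is under 0.05. The 10 subunits lie between -0.06 and 0.10, a narrower band than the gamma subunits, which reach from -0.58 to 0.13.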

How the data were processed

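Low-input libraries of synaptoneurosome RNA were sequenced, as the protocols in the labels state. Values in the deposited matrix are estimated counts, 1 per gene and sample, unscaled and in part not whole numbers. The submitters' processing notes name Salmon 1.3, DESeq2 1.30 and the builds GRCm39 and mm10, with no role. The strand setting is not given in the sources used here, so reads of overlapping genes on opposite strands cannot be told apart, and no coordinates are printed. Symbols were matched by Ensembl identifier without version (22155 of 22255). Transcript length is the median over a gene's CCDS transcripts in GENCODE M21. For genes without one it is the median over protein-coding transcripts, or else over all transcripts.

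Estimated counts were rounded, filtered with filterByExpr, scaled with TMM and fitted in edgeR 4.0.16 (under R 4.3.3). The quasi-likelihood p-values were adjusted by Benjamini-Hochberg over all 14512 genes tested, with a threshold of 0.05. SE is the size of the log2 fold change over the root of the F statistic. The 95% intervals use the total degrees of freedom of each gene. Exact permutation tests over the 126 ways to choose 4 of 9 samples are two-sided. All 36 pairs of samples differed by more than counting noise (chi-square over its degrees of freedom 10.0 or more). Alternatives used limma 3.58.1 and DESeq2 1.42.0, and other scalings, filters and omitted samples.

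The subunits and gene lists were chosen with earlier results of these data known. Named were all 10 subunits, the tested gene with the smallest p in each direction of each pathway list, 3 genes most like Gnao1, Gnas and Gnal, and Fmr1, Cnr1 and Htr1a. One gene named by this rule is not reported here. Of the marker lists, dentate granule markers (8 genes) had a median log2 fold change of 0.02, CA1 pyramidal markers (6 genes) 0.14, astrocyte -0.04, oligodendrocyte -0.09, microglia 0.11, neuron 0.12, endothelial -0.24, striatum -0.01, ependymal -0.65 and choroid plexus -1.37. No marker gene passed the adjusted threshold by edgeR.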

Additional observations from a re-analysis of the deposited data

Results flagged for a closer look

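The 10 subunits and the other named genes were screened for single samples far from their own treatment group, with Dixon's test. Among 74 groups of values 3 had a sample beyond the 95% critical value, and chance gives 3.7. For Gnb5, AM6545 E had 134.2 CPM while the remaining 3 of that group had 190.9 to 199.3 CPM (Dixon ratio 0.870). For Gnb1, AM6545 A had 204.3 CPM while the remaining 3 had 195.1 to 196.6 CPM (Dixon ratio 0.831). For Gng7, vehicle B had 245.8 CPM while the remaining 4 had 182.8 to 198.6 CPM (Dixon ratio 0.749).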

How the results depend on the processing

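Over 21 alternatives, 184 of 210 subunit values kept the direction of the reported value, none had an adjusted p under 0.05, and the largest size was 0.17 on the log2 scale. No subunit had an unadjusted p under 0.05 under any of them. Values close to 0 changed sign. With DESeq2-type size factors Gnai2 was at 0.0016 and Gnal at 0.0034, and with DESeq2 they were at 0.0017 and 0.0032. With the length trend removed Gnai2 was at 0.0054, Gnas at -0.021 and Cnr1 at -0.032. With total counts Cnr1 was at -0.00067, with limma-voom at -0.0041 and with limma-voom sample weights at -0.032, where Plcb2 was at 0.047. With each sample left out in turn, Gnao1 ran from -0.10 to 0.026, Gnai1 from -0.091 to 0.048, Gnai2 from -0.046 to 0.056, Gnaq from -0.088 to 0.0084, Gnas from -0.026 to 0.092, Gnal from -0.054 to 0.040, Gnb5 from -0.015 to 0.17, Gnb2 from -0.029 to 0.13, Grk4 from -0.15 to 0.019, Plcb2 from -0.16 to 0.16, Kcnj3 from -0.16 to 0.033, Oprd1 from -0.11 to 0.078 and Cnr1 from -0.088 to 0.086. The count of all genes past the threshold was 0 to 1, and 1 without AM6545 A. The count of all genes at an unadjusted p under 0.05 was 1047, 1823 with limma-voom sample weights, and 496 (without vehicle A) to 1848 (without AM6545 E) with a sample left out. That of the pathway genes was 9, and 6 (without vehicle A) to 22 (without vehicle B) with a sample left out, with 16 without AM6545 B. The causes were not tested.

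The title letters are shared between groups. Samples with the same letter did not deviate together for A, B and E (correlations over genes of -0.02, 0.04 and -0.02). For C the correlation was 0.34, and AM6545 C was the 1 of the 4 AM6545 samples that correlated best with its own letter. With the letter as a replicate block (8 samples, vehicle D left out) 0 genes passed, and Gnas was at -0.014, Gnb2 at -0.012 and Plcb2 at 0.00053.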
